A study of Homo sapiens with 9 samples.

Results

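The replication-dependent histone genes code for the core histones H2A, H2B, H3 and H4 and for the linker histone H1. They were taken here as every gene whose symbol starts with HIST1H, HIST2H, HIST3H or HIST4H. The rule also took in HIST1H2APS1, HIST2H2BA and HIST2H2BC, whose transcripts are non-coding. It found 73 of the 27111 genes in the tables, of which 6 were H1 genes, 18 H2A genes, 20 H2B genes, 14 H3 genes and 15 H4 genes. In NF-YAl multicellular tumor spheroids (MTSs) their summed level, on CPM, was 65.9% of that in Empty MTSs. On CPM, H1 genes, H2A genes, H3 genes and H4 genes were each lower in all 3 NF-YAl libraries than in any Empty library. The margin was narrow for H2A genes and H4 genes. On deposited TPM the NF-YAl libraries overlapped Empty for the sum and for every class, and the log2 ratio of the sum was -0.28. In NF-YAs MTSs the sum was 108% of that in Empty MTSs on CPM, with overlap of the libraries, whereas on TPM all NF-YAs libraries were above all Empty libraries, with a log2 ratio of 0.36. The long transcripts of the H2B genes HIST1H2BD and HIST1H2BK went the other way in NF-YAl MTSs, being higher in all NF-YAl libraries while the short transcripts of the same genes had lower means.

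Replication-dependent histone genes are transcribed mainly in S phase, when new chromatin is assembled behind the replication forks. Their mRNAs are the known exception to polyadenylation in animal cells, since they end just after a short conserved stem-loop that is bound by SLBP and cut by a machinery that includes the U7 snRNP. Some of these genes can also make a longer, polyadenylated mRNA that does not end at the stem-loop, a form known from cells that have left the cycle. NF-Y binds the CCAAT box, an element known from many cell cycle and histone promoters. Its subunit NF-YA is made as a long isoform, NF-YAl, and a short one, NF-YAs, by alternative splicing.

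PC-3 is a human prostate cancer cell line derived from a bone metastasis. The groups were PC-3 lines transduced with a lentiviral vector that was empty (Empty) or carried NF-YAl or NF-YAs. All were selected with puromycin, and the overexpressed isoforms had the murine sequence. Each line was grown for a week as MTSs, and the pooled MTSs of a line gave 1 library in each of 3 experiments. There were 3 libraries per line, with replicate letters A, B and C for Empty and NF-YAs and A, B and D for NF-YAl. The libraries were made from total RNA with a stranded kit and not by poly(A) selection, so that histone mRNAs without a poly(A) tail were counted.

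The libraries held 18076979 to 27163976 expected counts, of which the histone genes took 0.132% to 0.308%. NFYA itself was at 89.2, 96.7 and 89.4 CPM in Empty, at 287, 383 and 353 CPM in NF-YAl and at 264, 263 and 254 CPM in NF-YAs. CPM stands for expected counts relative to the scaled library size. How many of these reads came from the murine transgenes was not tested. The epithelial keratin genes KRT8 and KRT18 were at 109 to 375 CPM in the 9 libraries, whereas EPCAM was at 0.945 to 1.05 CPM in Empty. Of the markers of other cell types, PTPRC and DES did not pass the filter, COL1A2 was at most 1.71 CPM and PECAM1 was at 1.61 to 7.32 CPM.

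Library NF-YAl D stood apart. The short RNAs RN7SK, RN7SL1, RN7SL2, RMRP and RPPH1, which carry no poly(A) tail, together took 14.2% of its TPM against 30.0% to 43.4% in the other 8 libraries, and the fragment length implied by the deposited effective lengths was the shortest, at 145 nt against 149 to 167 nt. The summed levels below are therefore given on CPM and on TPM, and with and without that library. In bulk libraries fewer cells in S phase and less histone mRNA per cell cannot be told apart. By flow cytometry of PC-3 MTSs the study reported more BrdU-positive cells in NF-YAl than in Empty, and the most in NF-YAs. How that measurement relates to the histone levels of these libraries was not tested.

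The stem-loop of each gene was read from the GRCh37 genome as the first 16-base match, after the annotated stop codon, to the histone stem-loop, in which 6 base pairs enclose a loop of 4 bases. It was present in 65 of the 67 genes that the GENCODE annotation placed, 22 to 67 bases after the stop codon with a median of 35, and the other 2 had no annotated stop codon. The commonest form was shared by 38 genes of the H1, H2A, H2B and H3 classes, and the H4 genes had forms of their own with another base pair in the stem. The following are shown with the stem-loop in capitals and 5 bases on either side. They were chosen because they belong to the genes on which the results below turn, all on chromosome 6.
HIST1H1C (chr6:26055967-26055992, minus strand): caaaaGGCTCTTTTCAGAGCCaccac
HIST1H2AL (chr6:27833551-27833576, plus strand): acaacGGCTCTTTTCAGAGCCaccta
HIST1H2BN (chr6:27806863-27806888, plus strand): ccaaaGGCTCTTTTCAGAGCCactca
HIST1H2BK (chr6:27114140-27114165, minus strand): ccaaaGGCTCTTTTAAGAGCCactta
HIST1H3H (chr6:27778289-27778314, plus strand): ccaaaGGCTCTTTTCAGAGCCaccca
HIST1H4J (chr6:27792232-27792257, plus strand): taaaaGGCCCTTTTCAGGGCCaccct
HIST1H4K (chr6:27798951-27798976, minus strand): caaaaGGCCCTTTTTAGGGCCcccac
HIST1H1C, HIST1H2AL, HIST1H2BN and HIST1H3H shared the commonest form, HIST1H2BK had a form found in 9 genes, and HIST1H4J and HIST1H4K had the 2 commonest H4 forms, found in 8 and 4 genes. The median log2FC in NF-YAl against Empty was -0.68 for the 34 tested genes with the commonest form and -0.41 for the 6 tested genes with the HIST1H2BK form. It was -0.40 for the 7 with the HIST1H4J form and -0.78 for the 4 with the HIST1H4K form, as a description with no test. These 4 were HIST2H4A and HIST2H4B, with identical counts and both at -0.78, HIST1H4K at -0.99 and HIST1H4I at 0.58.

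Promoters were taken from RefSeq windows of 250 bases before to 50 bases after the gene start (GRCh38.p14), which were matched for 65 of the 73 genes. CCAAT, searched on both strands and so also as ATTGG, was in 55 of the 65 histone promoters (84.6%), against 35.7% of 27305 promoters of all genes. In addition, 67.7% of the histone promoters held it more than once, against 11.3% of all. By class it was in all 6 H1, 16 H2A, 18 H2B and 12 H3 promoters matched, but in 3 of 13 H4 promoters. TATAAA, the core of the box bound by TBP, was in 66.2% of the histone promoters and 11.95% of all promoters. ATTTGCAT, the octamer bound by POU2F1, was in 40.0% and 1.80%, with 11 of 16 H2A and 14 of 18 H2B promoters holding it. The following are the 250 bases before the start of 5 of these genes, with the CCAAT box, in either orientation, in capitals. They are shown because the first 2 belong to the genes with the largest decreases in NF-YAl that passed both thresholds, and the others to an H1 gene that fell, to an H2B gene whose total did not, and to an H4 gene without the box.
HIST1H2AL (chr6:27865067-27865316, plus strand): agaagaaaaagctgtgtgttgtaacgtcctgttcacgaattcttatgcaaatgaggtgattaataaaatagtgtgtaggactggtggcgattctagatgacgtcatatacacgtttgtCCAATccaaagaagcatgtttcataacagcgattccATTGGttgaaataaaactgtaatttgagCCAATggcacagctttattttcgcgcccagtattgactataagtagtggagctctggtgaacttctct
HIST1H2BN (chr6:27838319-27838568, plus strand): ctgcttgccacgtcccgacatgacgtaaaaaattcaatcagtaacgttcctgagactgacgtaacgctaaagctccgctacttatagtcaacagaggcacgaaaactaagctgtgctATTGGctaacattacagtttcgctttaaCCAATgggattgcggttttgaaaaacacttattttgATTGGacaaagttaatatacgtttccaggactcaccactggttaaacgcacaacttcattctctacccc
HIST1H1C (chr6:26056471-26056720, minus strand): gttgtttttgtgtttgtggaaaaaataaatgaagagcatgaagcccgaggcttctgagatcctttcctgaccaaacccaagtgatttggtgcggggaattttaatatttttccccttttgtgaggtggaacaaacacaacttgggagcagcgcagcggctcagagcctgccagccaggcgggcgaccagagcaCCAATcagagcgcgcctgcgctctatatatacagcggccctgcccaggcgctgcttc
HIST1H2BK (chr6:27146859-27147108, minus strand): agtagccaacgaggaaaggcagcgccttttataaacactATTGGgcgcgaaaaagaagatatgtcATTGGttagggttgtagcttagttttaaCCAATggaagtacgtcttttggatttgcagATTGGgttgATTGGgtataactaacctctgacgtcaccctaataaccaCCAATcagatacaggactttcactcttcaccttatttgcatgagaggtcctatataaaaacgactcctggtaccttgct
HIST1H4K (chr6:27831561-27831810, minus strand): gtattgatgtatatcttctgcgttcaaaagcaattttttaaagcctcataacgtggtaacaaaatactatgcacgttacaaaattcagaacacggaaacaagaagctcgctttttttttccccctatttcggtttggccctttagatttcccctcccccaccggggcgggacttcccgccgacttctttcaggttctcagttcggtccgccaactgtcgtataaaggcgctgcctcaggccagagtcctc
The windows of HIST1H2AL and HIST1H2BN held 3 CCAAT boxes each, that of HIST1H2BK 6, that of HIST1H1C 1 and that of HIST1H4K none. Set side by side with no test, the median log2FC in NF-YAl against Empty was -0.65 for the 46 tested genes with CCAAT and -0.58 for the 9 without it. In NF-YAs against Empty it was 0.18 and 0.21. The 9 tested genes without CCAAT were all H4 genes, HIST2H4A and HIST2H4B with identical counts among them. The presence of the box can therefore not be separated from the histone class here. A match to these letters is a description of the sequence and not a measured binding site.

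The summed level of all histone genes was 2427, 3015 and 2628 CPM in Empty A, B and C, 1269, 2284 and 1768 CPM in NF-YAl A, B and D, and 2633, 3050 and 3044 CPM in NF-YAs A, B and C. All NF-YAl libraries lay below all Empty and NF-YAs libraries. NF-YAl A was the lowest and NF-YAl B the nearest to Empty, and the Empty and NF-YAs libraries overlapped. Against Empty the log2 ratio of the means was -0.60 for NF-YAl and 0.11 for NF-YAs, and NF-YAl set against NF-YAs gave -0.71. The SD of the 3 libraries was 299 CPM in Empty, 508 CPM in NF-YAl and 239 CPM in NF-YAs. Without NF-YAl D the first of these was -0.60 and without NF-YAl A it was -0.41. No p-value is given for these sums, which are made over genes chosen with earlier results known.

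By class, H1 genes summed to 543 ± 51.8 CPM (SD, n = 3) in Empty and 305 ± 77.3 CPM in NF-YAl, or 56.1% of the Empty mean. H3 genes summed to 406 ± 49.99 and 241 ± 98.1 CPM, or 59.2%. H2A genes were at 65.3% and H4 genes at 67.1% of the Empty mean, again with all NF-YAl libraries below all Empty libraries. The margin was narrow, with NF-YAl B at 517 CPM for H2A genes and 386 CPM for H4 genes, against 518 and 389 CPM in Empty A. H2B genes, at 732 ± 88.1 CPM in Empty and 562 ± 113 CPM in NF-YAl, were at 76.7%, and here NF-YAl B (667 CPM) overlapped Empty A (650 CPM). In NF-YAs the libraries of each class overlapped Empty on CPM, with H3 genes the highest at 494 ± 59.2 CPM, or 122% of the Empty mean. The share of H2B genes in the summed histone CPM was accordingly 32.2% ± 2.85 in NF-YAl against 27.2% ± 0.346 in Empty and 26.2% ± 0.516 in NF-YAs, with no overlap between NF-YAl and either, and that of H1 genes was 17.3% ± 1.18 against 20.2% ± 0.373 in Empty.

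**Figure D1:**
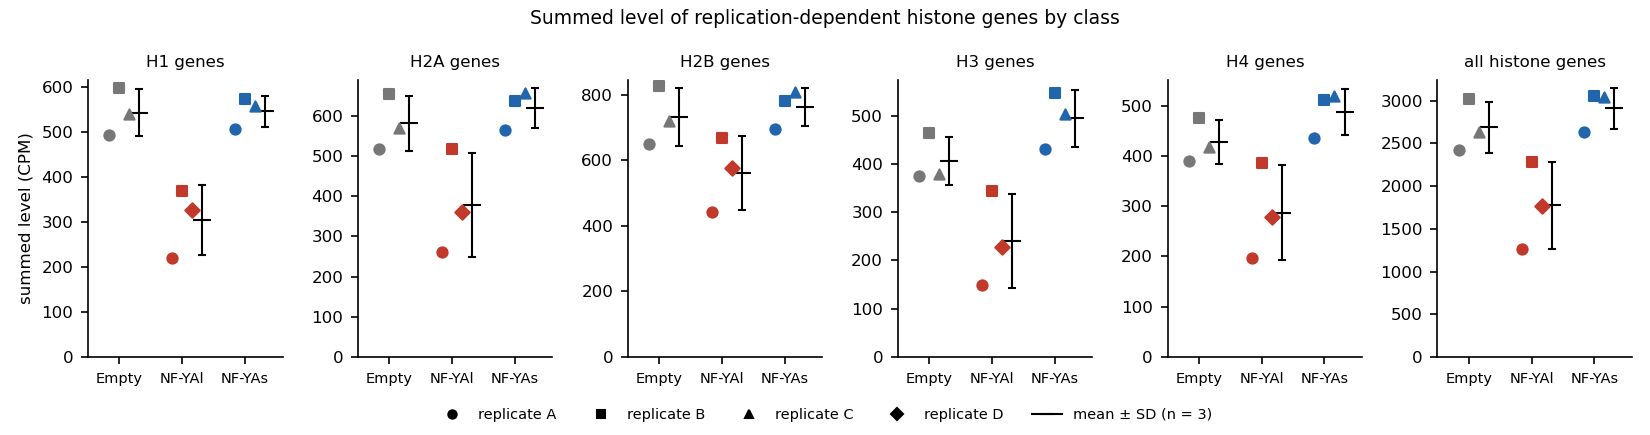
Summed level in CPM of the histone genes of each class and of all histone genes (vertical axes, each from 0) in the 9 libraries, by line; marker shapes give the replicate letter and the black bars the mean ± SD of 3 libraries. NF-YAl libraries lie below Empty libraries in every panel but that of H2B genes, NF-YAl A is the lowest in each panel, and the H3 genes of NF-YAs have a mean of 494 CPM against 406 CPM in Empty.

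On the deposited TPM the order of the NF-YAl libraries was another. Empty A, B and C had summed histone levels of 8928, 8617 and 7174 TPM, NF-YAl A, B and D of 4152, 6919 and 9247 TPM, and NF-YAs A, B and C of 10673, 10969 and 10142 TPM. NF-YAl D, the library with the small share of short RNAs, was thus above all Empty libraries, and the log2 ratio of NF-YAl against Empty was -0.28 with overlap. NF-YAs was above Empty in all libraries, with a log2 ratio of 0.36. After rescaling of the TPM without ribosomal RNA and a list of 32 other RNAs without poly(A), a choice made after seeing the data, the sums were 15261, 16596 and 14248 TPM for Empty, 7582, 13624 and 11118 TPM for NF-YAl and 17335, 19338 and 18237 TPM for NF-YAs. On this scale all NF-YAl libraries were again below and all NF-YAs libraries above the Empty libraries, with log2 ratios of -0.51 and 0.25. The lower level in NF-YAl was thus without overlap on CPM and on rescaled TPM but not on deposited TPM, and the higher level in NF-YAs was without overlap on both TPM scales but not on CPM.

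**Figure D2:**
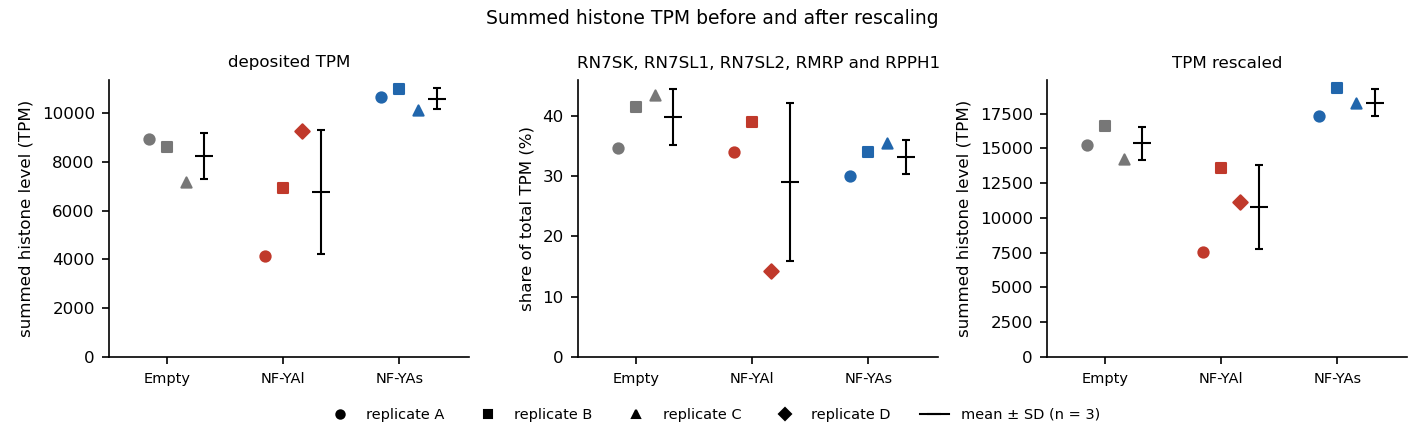
Summed histone TPM as deposited (left), share of total TPM in percent taken by RN7SK, RN7SL1, RN7SL2, RMRP and RPPH1 (middle), and summed histone TPM after rescaling without ribosomal RNA and the other RNAs without poly(A) (right), for the 9 libraries by line, with the mean ± SD of 3 libraries. NF-YAl D is at 14.2% in the middle panel and moves from 9247 TPM, above all Empty libraries, to 11118 TPM, below them.

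Of the 73 genes, 61 passed the filter on low counts and were tested, and the other 12 had at most 10 counts in any library. These 12 included HIST1H1A and HIST1H1B, whose products are somatic H1 subtypes, with at most 3 and 10 counts, and HIST1H3G, HIST1H3I, HIST1H4F, HIST1H4L and HIST1H2BI, with at most 3. HIST1H2APS1 and HIST1H4G had none in any library. DEGs were genes with a |log2FC| above 1 and, over all 17108 genes tested, a Benjamini-Hochberg adjusted p under 0.01 in the quasi-likelihood F-test of edgeR.

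In NF-YAl MTSs against Empty, 2 histone genes were DEGs with a lower level and none was a DEG with a higher level, against 3.5% and 4.76% of all tested genes. With the adjusted p alone 10 histone genes were lower (9.54% of all tested genes), and they were HIST1H1C, HIST1H1D, HIST1H1E, HIST1H2AL, HIST2H2AB, HIST3H2A, HIST1H2BN, HIST2H2BE, HIST1H3H and HIST4H4. None was higher by the adjusted p alone (10%), and none by DESeq2 with the DEG thresholds, while at an unadjusted p under 0.05 in edgeR 39 were lower and 0 higher (20.7% and 21.4% of all tested genes). The libraries of the groups did not overlap for 33 of the 61 genes, all of them lower in NF-YAl, where 21.4% of all tested genes were lower and 21% higher without overlap. The number lower was 33 without NF-YAl D, 34 without NF-YAl A and 51 without NF-YAl B, where 29.9%, 25.3% and 24.5% of all tested genes were lower without overlap. The log2FC was below 0 for 56 of the 61 genes (48.9% of all), with a median of -0.65 against 0.01 over all tested genes. By class the median was -0.82 for H1, -0.65 for H2A, -0.54 for H2B, -0.85 for H3 and -0.49 for H4 genes. The 5 genes with a log2FC above 0 were the non-coding HIST2H2BC, the H2B gene HIST1H2BE, the H3 gene HIST1H3E and the H4 genes HIST1H4D and HIST1H4I. These 5 genes were named after their values were seen, and their mean over the 9 libraries was 3.73 to 12.7 TPM.

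The H1 genes with the highest levels, HIST1H1C, HIST1H1E and HIST1H1D, code for linker histones that bind where DNA enters and leaves the nucleosome. HIST1H1C was at 214, 271 and 242 CPM in Empty, at 105, 161 and 132 CPM in NF-YAl and at 228, 253 and 251 CPM in NF-YAs. NF-YAl was apart from both other lines. Its log2FC in NF-YAl was -0.87 ± 0.143 (SE; edgeR quasi-likelihood F-test, Benjamini-Hochberg adjusted p = 0.000652), and in NF-YAs it was 0.01 ± 0.141. HIST1H1D (-0.88) and HIST1H1E (-0.77) passed the same test in NF-YAl, with adjusted p of 0.00541 and 0.00536 in edgeR's test. The fourth H1 gene tested, HIST1H1T, known from the testis, was at 1.03 to 2.26 CPM in the 9 libraries.

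Among the H2A genes HIST1H2AL had the largest decrease. It was at 8.56, 11.5 and 8.19 CPM in Empty, at 2.49, 5.40 and 4.52 CPM in NF-YAl and at 9.64, 12.8 and 12.7 CPM in NF-YAs. NF-YAl did not overlap with either line, and its log2FC against Empty was -1.17 ± 0.248 (edgeR quasi-likelihood F-test, Benjamini-Hochberg adjusted p = 0.00351). The H2A genes with the highest TPM were HIST2H2AA3 and HIST2H2AA4, whose deposited counts were identical in every library, and HIST2H2AC. HIST2H2AA3 was at 88.4, 108 and 95.1 CPM in Empty, at 43.3, 80.8 and 62.2 CPM in NF-YAl and at 82.4, 88.4 and 93.5 CPM in NF-YAs. Its log2FC of -0.65 in NF-YAl had an adjusted p of 0.0149 in edgeR's test, above the threshold. HIST2H2AC was at -0.69 with an adjusted p of 0.0246 in edgeR's test. All 16 tested H2A genes had a log2FC below 0 in NF-YAl, from -1.17 to -0.25.

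Among the H2B genes HIST1H2BN was at 22.9, 26.3 and 23.9 CPM in Empty, at 6.89, 14.2 and 12.9 CPM in NF-YAl and at 20.2, 27.2 and 25.1 CPM in NF-YAs. Its log2FC in NF-YAl was -1.10 ± 0.214 (edgeR quasi-likelihood F-test, Benjamini-Hochberg adjusted p = 0.00207), with no overlap. The expected counts of HIST1H2BN were not whole numbers, so part of them came from reads shared with other genes. The H2B gene with the highest TPM, HIST1H2BK, was at 117, 154 and 138 CPM in Empty, at 117, 157 and 134 CPM in NF-YAl and at 148, 165 and 172 CPM in NF-YAs. Its log2FC in NF-YAl was -0.0023 ± 0.129. HIST2H2BE, whose deposited transcript of 2223 nt was the longest of any histone gene, was at 131, 157 and 129 CPM in Empty, at 101, 104 and 102 CPM in NF-YAl and at 85.6, 95.3 and 99.9 CPM in NF-YAs. It was lower in both lines without overlap, with a log2FC of -0.44 ± 0.102 in NF-YAl and -0.57 ± 0.102 in NF-YAs (edgeR quasi-likelihood F-test, Benjamini-Hochberg adjusted p = 0.00555 and 0.000986).

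Of the H3 genes HIST1H3H was at 39.4, 47.96 and 41.3 CPM in Empty, at 15.5, 33.9 and 21.9 CPM in NF-YAl and at 48.7, 60.4 and 56.0 CPM in NF-YAs. The 3 lines were in the order NF-YAl, Empty, NF-YAs with no overlap between neighbours. Its log2FC against Empty was -0.85 ± 0.215 in NF-YAl (edgeR quasi-likelihood F-test, Benjamini-Hochberg adjusted p = 0.00996) and 0.36 ± 0.211 in NF-YAs (adjusted p = 0.206). HIST1H3B, the H3 gene with the highest TPM, and HIST1H3C showed the same order without overlap, but neither passed the test against Empty in either line. HIST2H3A and HIST2H3C, identical in every library, were at -0.87 in NF-YAl with an adjusted p of 0.0301 in edgeR's test.

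Of the H4 genes HIST4H4, which lies alone on chromosome 12, was at 17.7, 25.1 and 25.3 CPM in Empty, at 8.49, 14.9 and 12.3 CPM in NF-YAl and at 24.2, 27.7 and 31.6 CPM in NF-YAs. Its log2FC in NF-YAl was -0.92 ± 0.200 (edgeR quasi-likelihood F-test, Benjamini-Hochberg adjusted p = 0.00395), with no overlap. The identical copies HIST2H4A and HIST2H4B had a log2FC of -0.78 in NF-YAl with an adjusted p of 0.0155 in edgeR's test, and HIST1H4E, also among the H4 genes with the highest TPM, was at -0.40 with an adjusted p of 0.0761 in that test.

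**Figure D3:**
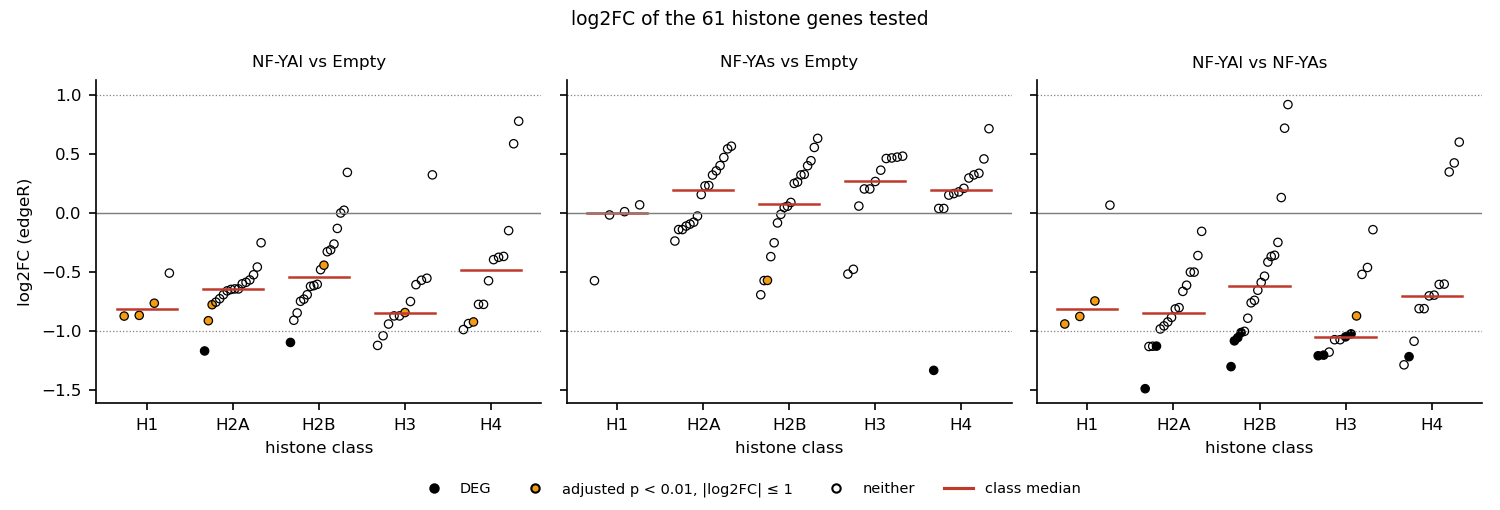
log2FC from edgeR (vertical axis, shared) of the 61 tested histone genes by class (horizontal axis) for the lines NF-YAl (left) and NF-YAs (middle) against Empty and for NF-YAl against NF-YAs (right); each point is a gene, black points are DEGs, orange points pass the adjusted p alone, red lines are class medians and dotted lines mark a log2FC of 1 in either direction. Class medians lie between -0.85 and -0.49 in the left panel and between 0.00 and 0.26 in the middle one, and the 11 DEGs of the right panel are all below 0.

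The number of DEGs in NF-YAl against Empty depended on single libraries. The lower DEGs numbered 0 without Empty B, 0 without NF-YAl A, 4 without NF-YAl D and 25 without NF-YAl B, and none was higher in any of these fits. Of all tested genes 2.95%, 3.38%, 3.81% and 3.16% were lower DEGs in these fits. The decreases of HIST1H2AL and HIST1H2BN spanned log2FC of -1.41 to -0.92 and -1.29 to -0.85 over 20 alternative settings.

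In NF-YAs MTSs against Empty, 1 histone gene, the H4 gene HIST1H4K, was a DEG with a lower level and none with a higher level, against 3.90% and 5.44% of all tested genes. By the adjusted p alone it was joined by HIST2H2BE (10.5% of all tested genes lower), and none was higher (12.1%). At an unadjusted p under 0.05, 5 were higher and 3 lower in edgeR (23.1% and 21.9% of all tested genes), and DESeq2 with the DEG thresholds called 1 lower and 0 higher. The libraries did not overlap for 16 histone genes that were higher (29.2% of all tested genes) and for 5 that were lower (27.2%). The median log2FC was 0.18 against 0.00 over all tested genes, with 42 of 61 genes above 0 (49.7%) and 19 below 0 (50.3%). On the deposited TPM 37 of the 61 genes were higher without overlap (29.1% of all tested genes) and on the rescaled TPM 29 (30.7%). The H3 genes HIST1H3A (0.48), HIST1H3B (0.47) and HIST1H3C (0.46) and the H2B gene HIST1H2BF (0.55) had their NF-YAs libraries above all Empty libraries, with adjusted p of 0.077 to 0.156 in edgeR's test.

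The value of HIST1H4K turned on reads that it shares with HIST1H4J. Both genes code for H4, their coding sequences were identical on GRCh37, and from the start codon to the end of the stem-loop they differed at 2 of 350 bases. HIST1H4K was at 10.5, 16.4 and 14.3 CPM in Empty, at 4.22, 10.9 and 5.51 CPM in NF-YAl and at 5.04, 5.90 and 5.34 CPM in NF-YAs, where its log2FC was -1.34 ± 0.293 (edgeR quasi-likelihood F-test, Benjamini-Hochberg adjusted p = 0.00375). HIST1H4J was at 18.7, 24.4 and 21.1 CPM in Empty and at 27.2, 38.3 and 39.7 CPM in NF-YAs, with a log2FC of 0.71 ± 0.312.

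The expected counts of the pair were not whole numbers but their sums were, in all 9 libraries. The sum was at 29.2, 40.8 and 35.5 CPM in Empty and at 32.3, 44.2 and 45.02 CPM in NF-YAs, with overlap. Its log2FC when fitted as 1 gene, a choice made after seeing the data, was 0.20 ± 0.293 with an adjusted p of 0.625 in edgeR's test. No histone gene was then a DEG in NF-YAs. HIST1H4K took 35.9% to 40.4% of the pair in Empty, 27.7% to 41.5% in NF-YAl and 11.9% to 15.6% in NF-YAs, so that the split of the shared reads, and not the sum, was without overlap between NF-YAs and Empty. In all, 34 of the 73 histone genes had a count more than 0.02 from a whole number, and single members of such groups are uncertain to that extent. Among them were the DEGs HIST1H2BN, HIST1H2BF and HIST1H2BL. None of these was in a pair with a whole sum, so they were not fitted together with the genes that share their reads. In addition, 5 histone genes overlap a protein-coding gene on the opposite strand, and whether the counting used strand is not given in the sources used here.

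The direct contrast of NF-YAl with NF-YAs gave the most DEGs. There were 11 histone genes with a lower level in NF-YAl and none with a higher level, against 2.86% and 1.74% of all tested genes, and by the adjusted p alone 15 were lower (6.25%) and none higher (4.7%), with 14 lower and 0 higher by DESeq2 and the DEG thresholds. The DEGs were the H2A genes HIST1H2AL (-1.49) and HIST1H2AB (-1.13), the H2B genes HIST1H2BF (-1.30), HIST1H2BN (-1.09), HIST3H2BB (-1.06) and HIST1H2BL (-1.01), the H3 genes HIST1H3C (-1.21), HIST1H3H (-1.21), HIST1H3A (-1.05) and HIST1H3B (-1.03), and the H4 gene HIST4H4 (-1.22), with log2FC in brackets and Benjamini-Hochberg adjusted p of 0.00132 to 0.00871 in the edgeR quasi-likelihood F-test. HIST1H2BL was the DEG nearest to the threshold on log2FC, and HIST1H4A (-1.09), with an adjusted p of 0.0107 in edgeR's test, was just outside the threshold on the adjusted p. At an unadjusted p under 0.05, 46 were lower and 1 higher (18.8% and 17.7% of all tested genes).

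HIST1H3C may serve as an example of these genes. It was at 58.3, 70.7 and 65.4 CPM in NF-YAs, at 42.2, 53.2 and 46.0 CPM in Empty and at 15.8, 40.4 and 27.5 CPM in NF-YAl, with no overlap between any pair of lines. Over the 61 genes, 45 were lower in NF-YAl without overlap (20.9% of all tested genes) and 2 were higher (18.6%). The latter were the H2B gene HIST2H2BE and the non-coding HIST2H2BC. The median log2FC was -0.80 against 0.02, with 54 genes below 0 (48.1%). On the deposited TPM 32 were still lower without overlap (5.45% of all tested genes). The lower DEGs numbered 3 without NF-YAl A, 30 without NF-YAl B and 12 without NF-YAl D (2.83%, 2.54% and 3.27% of all tested genes). They numbered 6, 3 and 2 without NF-YAs A, B and C (2.49%, 2.19% and 2.02%), and 7 when any 1 Empty library was left out (2.65% to 2.72%).

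HIST1H2BD and HIST1H2BK, whose products are H2B proteins, each had a short and a long deposited transcript. The short ones, of 487 and 498 nt, have the length of an mRNA that ends at the stem-loop, and the GENCODE transcripts of 486 and 495 nt of these genes ended 5 bases after it. A GENCODE transcript of 789 nt of HIST1H2BD held no such stem-loop. The long deposited transcripts had 814 and 839 nt. For HIST1H2BK only the GENCODE transcript of 495 nt was searched, so whether its long form ends at the stem-loop was not tested. The long transcript of HIST1H2BK was at 54.6, 65.6 and 62.6 CPM in Empty, at 81.7, 73.0 and 84.0 CPM in NF-YAl and at 60.2, 58.9 and 67.2 CPM in NF-YAs. All NF-YAl libraries were above all others, with a log2 ratio of the means of 0.39 against Empty.

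The short transcript of HIST1H2BK was at 61.9, 88.3 and 75.3 CPM in Empty, at 35.4, 83.9 and 49.7 CPM in NF-YAl and at 88.1, 106 and 105 CPM in NF-YAs. It was lower in NF-YAl A and D than in any Empty library but not in NF-YAl B, so that in the gene's total a lower mean of the short transcript and a higher mean of the long one were added. HIST1H2BD showed the same pattern, with the long transcript at 18.9, 20.1 and 18.8 CPM in Empty and 28.5, 22.2 and 24.6 CPM in NF-YAl, and the short one at 60.96, 81.9 and 71.7 CPM in Empty and 32.4, 60.1 and 51.2 CPM in NF-YAl. The short transcript of HIST1H2BD was thus lower in all NF-YAl libraries, with a log2 ratio of -0.58, and its long one higher in all, with a log2 ratio of 0.38.

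As a share of the gene's TPM, the long transcript of HIST1H2BD took 12.1% ± 1.29 (SD, n = 3) in Empty and 22.0% ± 7.79 in NF-YAl, with p = 0.1 in a two-sided exact permutation test, the smallest p that 3 libraries against 3 allow. That of HIST1H2BK took 29.1% ± 1.85 in Empty, against 43.4% ± 11.9 in NF-YAl and 23.7% ± 1.89 in NF-YAs, with p = 0.2 for NF-YAl and p = 0.1 for NF-YAs against Empty in the exact permutation test. The libraries with the highest shares, NF-YAl A at 30.7% and 53.6% and NF-YAl D at 19.8% and 46.3%, were also those with the lowest summed histone CPM. The third gene with 2 transcripts, HIST2H2BF, had 99.3% to 99.8% of its TPM in the short form in all libraries. Its long transcript overlapped between the lines, at 0.441 to 0.604 CPM in Empty and 0.408 to 0.664 CPM in NF-YAl. HIST2H2BE, whose only deposited transcript is the longest, was lower in NF-YAl, at a log2FC of -0.44. Its stem-loop lies 56 bases after the stop codon, within the gene. Reads of an mRNA that ends there therefore cannot be told from reads of a longer form. HIST1H3D, whose only deposited transcript has 921 nt, was at -0.61 in NF-YAl, with an adjusted p of 0.0114 in edgeR's test. Without the 5 genes that have a transcript over 800 nt, a choice made after seeing the data, the summed H2B level had a log2 ratio of -0.75 for NF-YAl against NF-YAs, compared with -0.44 with them.

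**Figure D4:**
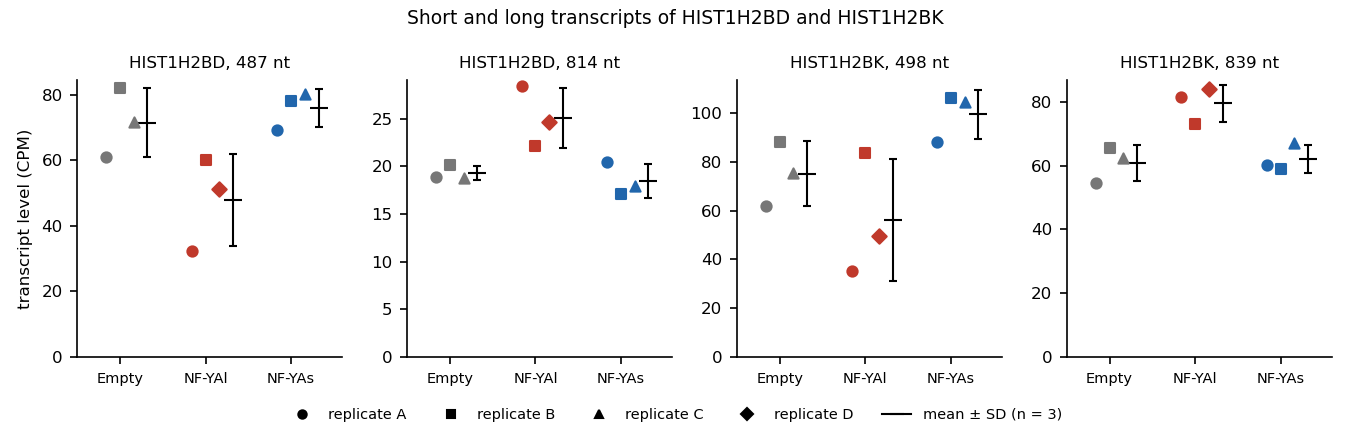
Level in CPM (vertical axes, each from 0) of the short and the long deposited transcript of HIST1H2BD (487 and 814 nt) and HIST1H2BK (498 and 839 nt) in the 9 libraries, by line, with the mean ± SD of 3 libraries. In NF-YAl the long transcripts lie above those of all Empty libraries, at 22.2 to 28.5 and 73.0 to 84.0 CPM, while the short ones have lower means than in Empty.

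Most histone genes lie in the cluster HIST1 on the short arm of chromosome 6, where 52 were placed between positions 25723625 and 27861669 of GRCh37. In NF-YAl against Empty 38 of the 42 tested histone genes of this stretch had a log2FC below 0, with a median of -0.60. The other 19 tested genes that lie among them had a median of 0.21, with 4 below 0. In NF-YAs against Empty the medians were 0.23 and -0.17. The 10 placed genes of the cluster HIST2 on chromosome 1 were all below 0 in NF-YAl, with a median of -0.78, as were both tested genes of HIST3 and the 1 of HIST4.

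In 10 places an H2A and an H2B gene start back to back, with 170 to 251 bases between their start sites on GRCh37. In the 9 pairs in which both were tested both genes had a log2FC below 0 in NF-YAl against Empty. So had all 16 tested H2A genes and 16 of the 18 tested H2B genes, paired or not. The members of a pair differed by a median of 0.25 and at most 0.59, which was not compared with genes that are not paired. The largest difference was that between HIST1H2AH (-0.59) and HIST1H2BK (-0.0023), the gene whose long transcript was higher. HIST1H2BN (-1.10) was paired with HIST1H2AK (-0.60).

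The other genes that make or handle histone mRNA were compared from lists written with earlier results known. Of 24 tested factors of histone gene transcription and 3′ end processing, 1 was higher and none lower by the adjusted p in NF-YAl (10% and 9.54% of all tested genes), with a median log2FC of 0.00. SLBP, which binds the stem-loop, was at 34.2, 34.5 and 34.9 CPM in Empty and at 23.6, 32.1 and 36.5 CPM in NF-YAl, with a log2FC of -0.17 ± 0.135. NPAT, the coactivator of histone gene transcription, was at -0.02 ± 0.102. NCBP2, the small subunit of the nuclear cap-binding complex, rose in NF-YAl by 0.67 ± 0.123 (edgeR quasi-likelihood F-test, Benjamini-Hochberg adjusted p = 0.00133). In NF-YAs CSTF2, a cleavage stimulation factor subunit, was a DEG at 1.19 ± 0.230, SRRT rose by 0.51 ± 0.0884 and GON4L was lower at -0.54 ± 0.122.

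The genes for variant histones, which are mostly expressed also outside S phase and polyadenylated, numbered 11 tested, with 3 lower and none higher by the adjusted p in NF-YAl (9.54% and 10% of all tested genes). H1F0, the linker histone of cells that have stopped dividing, was at 419, 474 and 435 CPM in Empty, at 176, 215 and 276 CPM in NF-YAl and at 315, 338 and 343 CPM in NF-YAs. It was below Empty in all libraries of both lines. Its log2FC in NF-YAl was -0.99 ± 0.140 (edgeR quasi-likelihood F-test, Benjamini-Hochberg adjusted p = 0.000229), and H2AFJ (-0.83) and H2AFY (-0.47) also fell. In NF-YAs H2AFY2, a macroH2A gene, was a DEG at 1.06 ± 0.124, and H2AFV rose by 0.44 ± 0.0940. Between NF-YAl and NF-YAs 2 of the 11 were lower by the adjusted p (6.25% of all tested genes), H2AFY2 (-0.91) and H1FX (-0.54).

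Of 23 histone chaperone and importin genes 1 was lower and none higher by the adjusted p in NF-YAl (9.54% and 10% of all tested genes). The lower gene was HJURP (-0.55), the chaperone of CENPA. In NF-YAs 3 were higher and none lower (12.1% and 10.5% of all tested genes), namely NASP (0.54), IPO4 (0.59) and HJURP (0.45). Between NF-YAl and NF-YAs 2 were lower by the adjusted p (6.25% of all tested genes). HJURP was a DEG at -1.01 and HIRA, a chaperone of the H3 variant, was lower at -0.40. Of 25 tested other RNAs without poly(A), 1, the telomerase RNA TERC, was a DEG in NF-YAl (-1.14) and in NF-YAs (-1.09). Of all tested genes 3.5% and 3.9% were lower DEGs. The medians of the list were -0.37 and -0.48. The summed CPM of that list was 41684 to 70735 in Empty, 12129 to 58245 in NF-YAl and 32309 to 48375 in NF-YAs, with overlap. NF-YAl D was the lowest library for these RNAs and NF-YAl A for histone genes.

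Of 50 S phase genes, 6 were lower and 1 higher by the adjusted p in NF-YAl (9.54% and 10% of all tested genes), with a median log2FC of -0.19, and 41 had a log2FC below 0. ORC6 (-0.93), CDT1 (-0.85), RRM1 (-0.72), TYMS (-0.69) and POLA2 (-0.50) were among those lower, and CCNE2 (0.62) was the one higher. In NF-YAs 2 were higher, POLE at 0.95 and RFC5 at 0.66, and 1, ORC6 at -0.85, was lower (12.1% and 10.5% of all tested genes), with a median of 0.21. Between NF-YAl and NF-YAs 6 were lower and none higher (6.25% and 4.7% of all tested genes), among them ORC1 (-0.97) and POLD1 (-0.59). The median of the 50 genes in this contrast was -0.43, with 47 below 0 (48.1% of all tested genes). Without overlap 28 were lower and 1 higher (20.9% and 18.6%). PCNA was not called in either line, at -0.39 ± 0.199 in NF-YAl and -0.09 ± 0.199 in NF-YAs. MKI67, a proliferation marker, was at -0.36 ± 0.164 and 0.49 ± 0.164, with adjusted p of 0.116 and 0.0359 in edgeR's test. Between NF-YAl and NF-YAs MKI67 was at -0.85 and passed the adjusted p alone (0.00357 in edgeR's test). PCNA was at -0.30 in that contrast, with an adjusted p of 0.302 in the same test.

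The S phase genes summed to 2739, 2832 and 2477 CPM in Empty, to 1650, 2437 and 2738 CPM in NF-YAl A, B and D, and to 3096, 3089 and 3119 CPM in NF-YAs. NF-YAl A, the lowest library for histone genes, was thus also the lowest for S phase genes, while NF-YAl D was within the range of Empty. For each 100 CPM of S phase genes the histone genes had 88.6, 106 and 106 CPM in Empty and 76.9, 93.7 and 64.6 CPM in NF-YAl. In NF-YAs they had 85.04, 98.7 and 97.6 CPM. On this ratio NF-YAl B overlapped Empty and NF-YAl D was the lowest library, and the part of S phase in the histone difference was not tested.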

How the data were processed

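Total RNA libraries of 9 MTS samples of PC-3 lines were analysed, 3 per line. Per the labels and the study's methods, the authors aligned the reads with Bowtie2 within RSEM to hg19 (GRCh37) and deposited, for each gene and transcript, an expected count, the TPM and, for transcripts, the percent of the gene's TPM. Reads that fit several genes, or several transcripts of a gene, were divided among them by RSEM. The expected counts of near-identical histone genes, and of the short and long transcripts of a gene, are therefore estimates.

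Expected counts were rounded and fitted in R 4.3.3 with edgeR 4.0.16 (TMM scaling, filterByExpr, quasi-likelihood test, 9 libraries in 1 fit, 17108 genes tested), with Benjamini-Hochberg adjustment over all tested genes. CPM are expected counts divided by the scaled library size. SE was |log2FC| divided by the root of the F statistic. The fit was tested on simulated data. For DEGs the |log2FC| was above 1 and the adjusted p under 0.01. Class sums were made of all 73 genes and carry no p-value. Transcript shares were compared by a two-sided exact permutation test. Python 3.11.15, pandas 2.3.3 and matplotlib 3.10.9 were used for sequences and figures. Older symbols were matched to current ones for GENCODE on GRCh37, where 67 genes were placed, and for RefSeq promoters on GRCh38.p14, where 65 were matched.

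The members and lists were chosen with earlier results of these data known. Named were the 3 genes of each class with the highest mean TPM, up to 10 DEGs per comparison and direction, genes with several transcripts, identical copies, NFYA, SLBP, NPAT, MKI67, PCNA, and up to 5 genes per list with the largest |log2FC| among those past the adjusted p. Alternatives were DESeq2 1.42.0, RLE scaling, other filters and thresholds, only the groups compared, a replicate block, an effective-length offset, summed copies, TPM and each library left out. Summing pairs that share reads, leaving out transcripts over 800 nt, rescaled TPM and the overlap counts under other scalings were added after seeing the data. The labels do not say what the replicate letters mark, so p-values measure the spread between these libraries. The values of some marker genes are not reported here.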

Additional observations from a re-analysis of the deposited data

Results flagged for a closer look

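The 11 genes below differed between NF-YAl and NF-YAs in the test of that difference itself, the edgeR quasi-likelihood F-test with Benjamini-Hochberg adjusted p. Both lines were compared with the same Empty libraries, and the values are log2FC of NF-YAl against NF-YAs. HIST1H2AL was at -1.49, HIST1H2BF at -1.30, HIST4H4 at -1.22, HIST1H3C at -1.21, HIST1H3H at -1.21 and HIST1H2AB at -1.13. HIST1H2BN was at -1.09, HIST3H2BB at -1.06, HIST1H3A at -1.05, HIST1H3B at -1.03 and HIST1H2BL at -1.01, the last of these named after its values were seen. Without NF-YAl B 30 histone genes were lower DEGs in this contrast, and without NF-YAs C 2 were (2.54% and 2.02% of all tested genes).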

How the results depend on the processing

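The reported fit did not pair the libraries by replicate letter. Deviations from the group means correlated with a mean r of 0.0862 over 7 pairs of the same letter (-0.0652 to 0.253). The mean r was -0.0299 over 20 pairs of different letters (-0.22 to 0.163). With ranges that overlap and the meaning of the letters not given, this does not settle whether the letters pair the libraries. With the replicate block 6 histone genes were DEGs with a lower level in NF-YAl against Empty and 21 against NF-YAs (3.75% and 3.33% of all tested genes). The sums over each class kept their direction on CPM under the block.

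The counts of lower DEGs are given with the share of all tested genes in brackets. That in NF-YAl against Empty, 2 as reported (3.5%), was 4 with DESeq2 (3.33%), 4 with no filter on low counts (2.72%) and 4 at an adjusted p under 0.05 (4.27%). It was 10 with no limit on fold (9.54%) and 1 in a fit of only the groups compared (3.13%). That in NF-YAl against NF-YAs, 11 as reported (2.86%), was 18 with no filter (2.33%), 18 at an adjusted p under 0.05 (3.79%) and 3 in a fit of only the groups compared (2.39%). That in NF-YAs against Empty, 1 as reported (3.9%), was 2 with no limit on fold (10.5%) and 0 when pairs sharing reads were summed (3.91%). Leaving out 1 library gave 0 to 25 (2.77% to 3.81%), 2 to 30 (2.02% to 3.27%) and 0 to 1 (2.89% to 4.25%). The order is NF-YAl against Empty, NF-YAl against NF-YAs and NF-YAs against Empty. The lone DEG of NF-YAs was lost without Empty B, Empty C, NF-YAs A, NF-YAs B or NF-YAs C.

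Shares of all tested genes are in brackets. For NF-YAl against Empty the genes lower without overlap numbered 4 on deposited TPM (4.02%) and 33 to 51 with 1 library left out (21.4% to 29.9%). Those higher numbered 3 on deposited TPM (19.4%), 1 on the total count (29.6%) and on rescaled TPM (24.6%), and 0 to 2 with 1 library left out (21% to 29%). For NF-YAs against Empty the genes lower numbered 3 on deposited TPM (12.4%) and 5 to 11 with 1 library left out (27.2% to 32.2%), 11 being without Empty A. Those higher numbered 37 on deposited TPM (29.1%), 29 on the total count (36.8%) and 29 on rescaled TPM (30.7%). With 1 library left out they numbered 16 to 30 (29.2% to 33.8%), 30 being without NF-YAs A. For NF-YAl against NF-YAs the genes higher numbered 2 to 4 with 1 library left out (18.6% to 27.6%).

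On deposited TPM the log2 ratio of the summed level in NF-YAl against Empty was -0.48 for H1 and -0.10 for H2B genes. In NF-YAs against Empty it was 0.36 for all histone genes, 0.20 for H1, 0.30 for H2A, 0.37 for H2B, 0.48 for H3 and 0.41 for H4 genes. Without genes with a transcript over 800 nt the H2B ratio was 0.22 in NF-YAs against Empty and -0.75 in NF-YAl against NF-YAs, and on rescaled TPM it was 0.26 in NF-YAs against Empty. Of the values for single genes under these alternatives 4008 kept their side of the threshold, 100 moved past it and 64 fell short of it. Of the 4008, 41 values of 16 comparisons of single genes changed sign, none of them past the threshold. Among the sums the H1 ratio in NF-YAs against Empty, 0.01 as reported, was -0.06 without Empty A, and the H2B ratio was -0.02. The cause of these shifts was not tested. With 3 libraries per line the smallest exact p is 0.1, and genes with under 10 counts in every library were not resolved at this depth.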
